A study of Mus musculus with 6 samples.

Results

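Cytosolic ribosomal proteins are the protein components of the ribosome that translates nuclear messenger RNA, and their messenger RNA was measured here in lymphatic endothelial cells of the mouse meninges. The genes were taken from the deposited table as the protein-coding rows whose symbol starts with Rpl (large subunit) or Rps (small subunit). Rows named as pseudogenes (-ps), the Rps6k kinases and Rps19bp1 were left out. This gave 84 genes of the 22964 in the table, 51 of the large subunit and 33 of the small subunit. Of these, 77 encode the standard set of ribosomal proteins, and 7 are paralogs or retrocopies (Rpl10l, Rpl22l1, Rpl36al, Rpl39l, Rpl7l1, Rps27l and Rps27rt).

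The cells came from untreated male mice of the wild-type C57BL/6J strain and were collected by flow cytometry as negative for the leukocyte protein CD45 and positive for the endothelial protein CD31 and for podoplanin. The young group had 3 samples from mice aged 2 to 3 months, and the old group had 3 samples from mice aged 20 to 24 months. RNA was amplified linearly before sequencing, per the labels. Jackson Labs or the NIH/NIA supplied the mice, and the labels do not tie a sample to a supplier. The labels also do not say whether each sample was 1 animal or a pool of several, and a p-value here reflects the variation among these 3 and 3 samples only, which could be technical. Levels are given in CPM, counts of a gene relative to the library total on a common scale after TMM adjustment (which lines up the bulk of the genes between samples), and values by sample are always listed from sample 1 to sample 3 of a group. Depth was 14285794 to 21043945 estimated counts per sample.

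A ribosome joins a small subunit, which decodes the messenger RNA, to a large subunit, which forms the peptide bond. Most ribosomal proteins are needed in equal numbers. The messenger RNAs of ribosomal proteins share a stretch of pyrimidines at the very start of the transcript, the 5′ terminal oligopyrimidine (TOP) tract. Through this tract, the kinase complex mTORC1 and the RNA-binding protein LARP1 control their translation together. Ribosomal protein transcripts are also the classic source of processed pseudogenes, copies of the spliced messenger RNA inserted elsewhere in the genome, and short reads from such a gene and its copy can be hard to tell apart.

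The windows around the annotated transcription start show a run of pyrimidines in several genes named in these results. The windows printed are examples, and the share over all genes with a promoter follows them. RefSeq promoter sequences of build GRCm38.p6 were found for 64 of the 84 genes, and each window below holds 15 bases before the start and the first 15 transcribed bases, read 5′ to 3′ on the gene's strand. Capitals mark the part, within the window, of a run of at least 8 C or T bases found within 20 bases of the start.
Rps27, chr3:90213634-90213663, minus strand: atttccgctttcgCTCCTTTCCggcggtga
Rps6, chr4:86857353-86857382, minus strand: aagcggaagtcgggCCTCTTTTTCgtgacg
Rps9, chr7:3704026-3704055, plus strand: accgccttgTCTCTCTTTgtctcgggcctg
Rplp2, chr7:141447636-141447665, plus strand: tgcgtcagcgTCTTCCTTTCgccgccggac
Rpl18, chr7:45718056-45718085, plus strand: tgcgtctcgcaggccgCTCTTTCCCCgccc
Rpl38, chr11:114668565-114668594, plus strand: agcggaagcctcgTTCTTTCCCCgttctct
Rplp0, chr5:115559452-115559481, plus strand: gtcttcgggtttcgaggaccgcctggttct
Rps4x, chrX:102189377-102189406, minus strand: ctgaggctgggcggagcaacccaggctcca

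Within 20 bases of the start, 29 of the 64 genes had a run of this length on their strand. This was 45.3%, against 16.45% of 32851 RefSeq promoters. Here and for the motifs below, each of the 64 genes entered only with the promoter nearest its annotated transcript start. The share over all promoters instead counts every promoter of every gene, these genes included, so the units differ. By subunit these were 19 of 39 large and 10 of 25 small subunit genes. Some of the runs lay wholly before the start, such as those of Rpl13 and Rpl4, so this is not a count of TOP tracts. Rplp0 and Rps4x, the last pair shown, had no run of 8 in the window searched, which says nothing about whether their messenger RNA carries a tract at another start. Over the whole promoter window, from 250 bases before to 50 bases after the start, the 8-base ETS family core CCGGAAGT, searched also as its reverse complement ACTTCCGG, was in 11 of the 64 genes, 17.2%, against 3.887% of all promoters. The YY1 core AAGATGGC or GCCATCTT was in 5 of them, 7.81%, against 2.749%, and TATAAA or TTTATA was in 6, 9.375%, against 13.6%. These motifs can overlap the pyrimidine run on either strand, and a match is a description of the letters only.

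The pseudogene copies decide how far each gene's own row can be read. A pseudogene row, or a protein-coding row named -ps, was counted as a copy when at least 50% of its 31-base words were in the gene's transcript. By this measure 62 of the 84 genes had at least 1 copy among the rows of the table, and there were 193 copies. At least 50% of the words of 47 ribosomal protein transcripts were also in some other row, and 13 transcripts shared under 10%. Of the 22 copies with a mean of at least 10 CPM, 16 held the entire coding sequence of their gene without a mismatch.

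A clear case was Rpl5, which encodes a large subunit protein that carries the 5S ribosomal RNA into the ribosome. Its row (8 exons, chr5:107900502-107909005, plus strand) read 28.2, 44.0 and 15.6 CPM in the young samples and 37.3, 31.7 and 8.98 CPM in the old. The processed pseudogene Gm15500 (chr7:114705217-114706235, minus strand) read 207, 125 and 135 CPM in the young samples and 102, 111 and 142 CPM in the old, so the copy was above the gene in every sample. Their coding sequences were identical over all 891 bases. The first 60 coding bases of each are shown to make the point that no read inside them can be assigned to 1 locus by sequence.
Rpl5: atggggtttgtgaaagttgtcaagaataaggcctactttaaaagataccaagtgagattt
Gm15500: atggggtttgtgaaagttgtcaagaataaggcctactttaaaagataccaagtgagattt

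Rpl29, a large subunit protein, and its copy Gm10709 are the contrasting case, with 4 mismatches over 480 coding bases (99.2% identical). In coding bases 398 to 457 capitals mark the mismatched positions, and the stretches between them are the same in both.
Rpl29: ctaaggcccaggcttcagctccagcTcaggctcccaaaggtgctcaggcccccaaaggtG
Gm10709: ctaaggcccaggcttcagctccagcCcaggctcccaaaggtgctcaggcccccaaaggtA

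The Rpl29 row had 109, 91.4 and 46.5 CPM in the young samples and 148, 70.5 and 71.6 CPM in the old samples, with overlapping groups. The Gm10709 row read 59.1, 43.3 and 61.6 CPM in the young samples and 0, 60.01 and 44.8 CPM in the old, and the old sample at 0 was the one in which Rpl29 was highest. The edgeR log2 fold change of Rpl29 was 0.23 from its own row and -0.07 with all its copies added, so its direction depended on the copies.

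Adding each gene's copies to its own row left 54 genes with at least 95% of the combined CPM in their own row and 7 with under 50%. The share in the own row was 0.154% for Rps12, 16.8% for Rpl5, 19.5% for Rpl27, 23.2% for Rpl12, 24.1% for Rpl22l1, 32.2% for Rpl31 and 45.4% for Rpl28. These genes, and Rps3, Rpl29, Rpl7, Rpl10 and Rps9, are named here because of values seen in the data. Rps12, a small subunit protein, was listed at 0 in 4 of the 6 samples and at 0.186 and 0.203 CPM in young samples 1 and 2. With its copies, mainly Rps12l1 and Rps12-ps3, it had 39.4, 36.0 and 36.8 CPM in the young samples and 50.3, 36.8 and 54.0 CPM in the old samples. The own row and the copies together thus gave a level in every sample, although the own row was empty in every old sample.

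**Figure D1:**
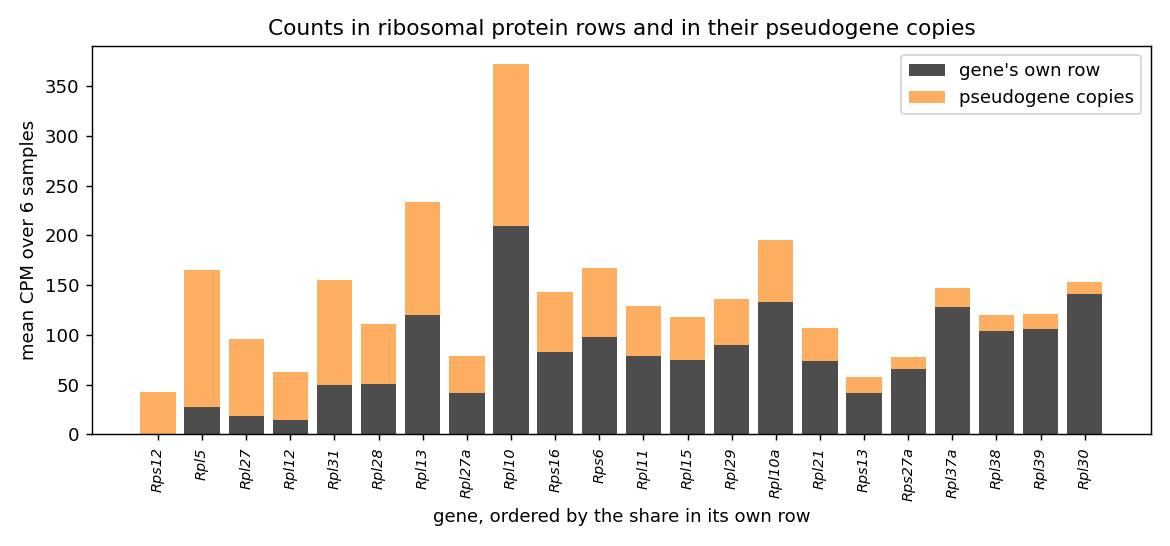
Mean CPM over 6 samples (vertical axis) of 22 ribosomal protein genes whose copies sum to at least 10 CPM, with the gene's own row in dark grey and its pseudogene copies stacked in orange. Genes run from the lowest share in the own row, 0.154% for Rps12, to the highest.

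Levels were next compared between genes per kilobase of 1 annotated transcript per gene. Among small subunit genes, the highest mean levels per kilobase over the 6 samples were those of Rps27 (676 CPM per kb), Rps29 (432), Rps21 (326), Rps4x (242) and Rps3a1 (238). Among large subunit genes they were those of Rpl41 (527 CPM per kb), Rplp1 (296), Rpl38 (285), Rpl9 (283) and Rpl32 (274). Most of these encode very small proteins, and Rpl41 encodes the smallest of the ribosome. Low levels per kilobase were seen for Rpsa at 9.86 and Rpl12 at 11.7 CPM per kb, although the ribosome holds these proteins in equal numbers. For Rpl12, only 23.2% of the level combined with its copies was in its own row. For Rps15a and Rps20, the transcripts used were 5130 and 3706 bases long, far above the median of 774 bases for the standard genes, so their levels per kilobase are not comparable with the rest. Of the words of Rps27 and Rpl9, 98.7% and 93.5% were also in other rows, while Rps21 and Rps9 shared none.

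Ribosomal protein genes had a lower median spread between samples than other genes of like level, a difference given without a test. The median coefficient of variation over all 6 samples was 26.3% for the 81 tested genes and 45.5% for 5411 other genes between 24.6 and 176 CPM, the 10th and the 90th percentile of the ribosomal protein genes. Rpl7, a large subunit protein, was the steadiest at 6.42%, with 101, 102 and 101 CPM in the young samples and 98.8, 86.0 and 93.8 CPM in the old. Rplp1, at 7.47%, and Rpl10, at 8.26%, followed. The most variable were Rpl13a at 79.4%, Rpl22l1 at 78.8%, Rpsa at 75.6% and Rpl12 at 74.6%. These 4 include low rows and rows that share much of their sequence with others.

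No ribosomal protein gene differed between old and young samples after correction over all genes. With edgeR's quasi-likelihood test and Benjamini-Hochberg adjustment over 15394 tested genes, 0 of the 81 tested ribosomal protein genes had an adjusted p under 0.05, and the share over all genes was also 0%. The filter on low counts removed Rpl10l, Rpl39l and Rps12. The smallest adjusted p of a ribosomal protein gene was 0.888 by edgeR and 0.396 by DESeq2, which called 0 of the 81 against 0.882% of all genes it could adjust. The limma-voom test also called 0 of the 81, against 0.0195% of all genes. At an unadjusted p under 0.05, edgeR gave 1 ribosomal protein gene, higher in old samples (2.86% of all genes), and 0 lower (2.7% of all genes). DESeq2 gave 1 at that level against 9.13% of all genes, and limma-voom gave 2 against 6.35%. The median standard error of a log2 fold change was 0.39, which is above the median log2 fold change of these genes.

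Most log2 fold changes of old against young were small and positive. Of the 81 genes, 62 (76.5%) had a positive log2 fold change against 51% of all tested genes, and the median was 0.26 against 0.02 over all tested genes. The middle 50% of ribosomal protein genes lay between 0.0025 and 0.51, while that of all genes ran from -0.62 to 0.60. An absolute log2 fold change above 1 was seen for 3 ribosomal protein genes (3.7%), Rpl13a, Rpsa and Rpl22l1, against 31.2% of all tested genes. Among genes with a mean of at least 10 CPM this was 2 of 79 against 21.1%, and 1 of these 79 had an unadjusted p under 0.05 by edgeR against 6.58% of all genes at that level. Old and young values did not overlap for 7 genes with old above young (5.56% of all genes did so) and for 3 with old below young (6.44% of all genes). The shares among the 81 were 8.64% and 3.70%, so neither count stood far from its background.

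**Figure D2:**
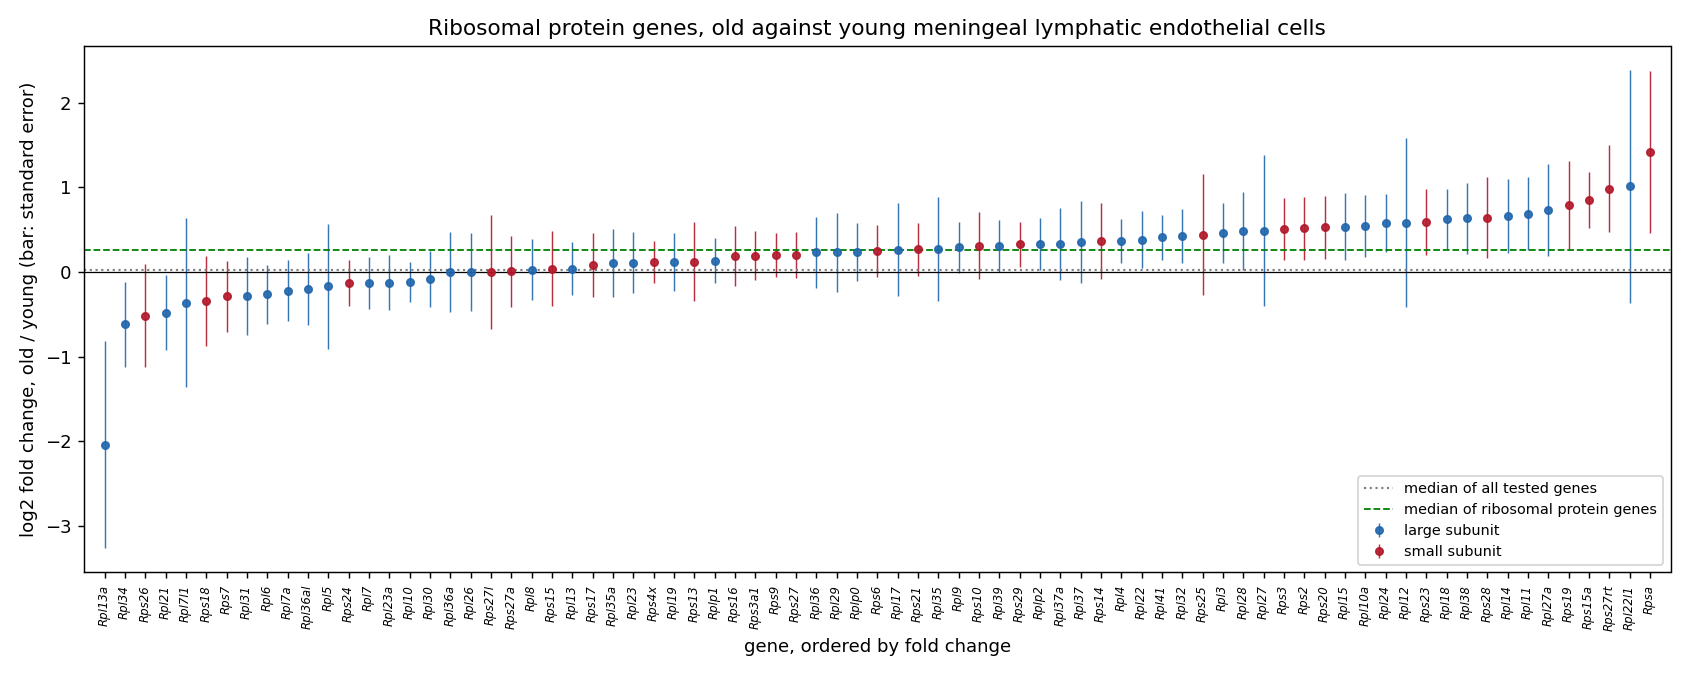
Log2 fold change of old against young (vertical axis, edgeR, bars are the standard error) for 77 of the 81 tested ribosomal protein genes ordered along the horizontal axis, large subunit in blue and small subunit in red. The median of all 81 (dashed, 0.26) lies above that of all tested genes (dotted, 0.02), and the bars of neighbouring genes overlap along the whole order.

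Read from their own rows, the large and small subunits showed the same median. For 49 large subunit genes the median log2 fold change was 0.26, with 35 positive and 14 negative, and for 32 small subunit genes it was 0.26, with 27 positive and 5 negative. The middle 50% ran from -0.09 to 0.48 in the large subunit and from 0.07 to 0.52 in the small subunit. With copies added to their genes, the medians moved to 0.13 for the large subunit, with 33 of 49 positive, and 0.27 for the small subunit, with 28 of 33 positive.

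Summed over all 84 genes, the level was 7770, 7464 and 7356 CPM in the young samples and 10229, 8464 and 7973 CPM in the old samples. The means were 7530 ± 215 and 8889 ± 1186 CPM (SD, n = 3), and the groups did not overlap on this scale. As a share of all counts, without TMM scaling, the genes took 0.796%, 0.787% and 0.777% of the young libraries and 0.923%, 0.816% and 0.782% of the old libraries, and here the groups overlapped. The small subunit sum was 3446, 2993 and 3070 CPM in the young samples and 4371, 3575 and 3612 CPM in the old, with every old sample above every young sample. As a share of all counts the small subunit took 0.353%, 0.316% and 0.324% of the young libraries and 0.395%, 0.344% and 0.354% of the old ones, and on this scale old sample 2 lay below young sample 1. The large subunit sum was 4324, 4471 and 4285 CPM in the young samples and 5858, 4890 and 4362 CPM in the old, with old sample 3 within the young range. The ratio of large to small subunit was 1.26, 1.49 and 1.40 for the young and 1.34, 1.37 and 1.21 for the old samples (1.38 ± 0.12 and 1.31 ± 0.086, SD, n = 3), and the groups overlapped. With the copies added, this ratio was 1.51, 1.71 and 1.63 for the young and 1.52, 1.59 and 1.38 for the old samples, and the groups still overlapped.

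**Figure D3:**
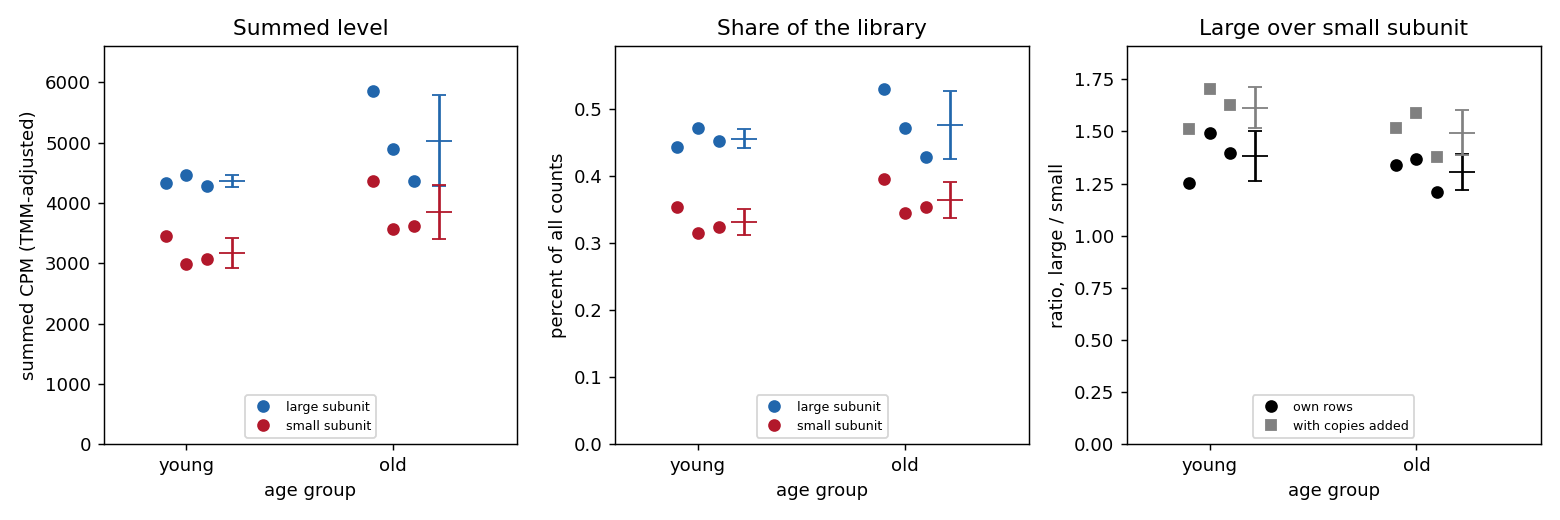
Summed CPM of large and small subunit genes, their percent of all counts, and the ratio of large to small subunit (own rows in black, with pseudogene copies added in grey), each by age group with samples 1 to 3 from left to right and the mean with its SD beside them. Old sample 1 is the highest of the 6 samples in both sums, at 5858 and 4371 CPM, and the ratios overlap between ages.

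Old sample 1 stood above the others. It held the highest value of the 6 samples for 40 of the 81 genes, against 6 to 12 genes in each other sample, and its genes lay a median of 0.32 on the log2 scale above their own mean over the 6 samples. The medians of the other samples lay between -0.13 and 0.04. Without old sample 1, 51 of 81 genes had a positive log2 fold change (46.6% of all tested genes), the median was 0.15 (that of all tested genes was -0.08), and the summed level had a log2 ratio of 0.13 in place of 0.24. The share of mitochondrial ribosomal RNA among all counts was 15.7% to 16.5% in the young libraries and 20.2%, 21.9% and 16.0% for the old libraries. With all mitochondrial genes left out of the table before scaling, 62 of the 81 genes were positive and the median was 0.26, against 0.02 over all genes, which matches the values with them to 2 decimals. Scaled by library size alone, 49 of the 81 genes were positive with a median of 0.11, when the median of all genes was -0.12 (44.2% positive). The distance between the medians was 0.24 with TMM scaling and 0.23 without it. A change of scaling shifts all genes nearly alike, so this distance could hardly move. The TMM values without mitochondrial genes could hardly move either, since TMM lines up the bulk of the genes. The part of library composition in the difference was not tested.

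**Figure D4:**
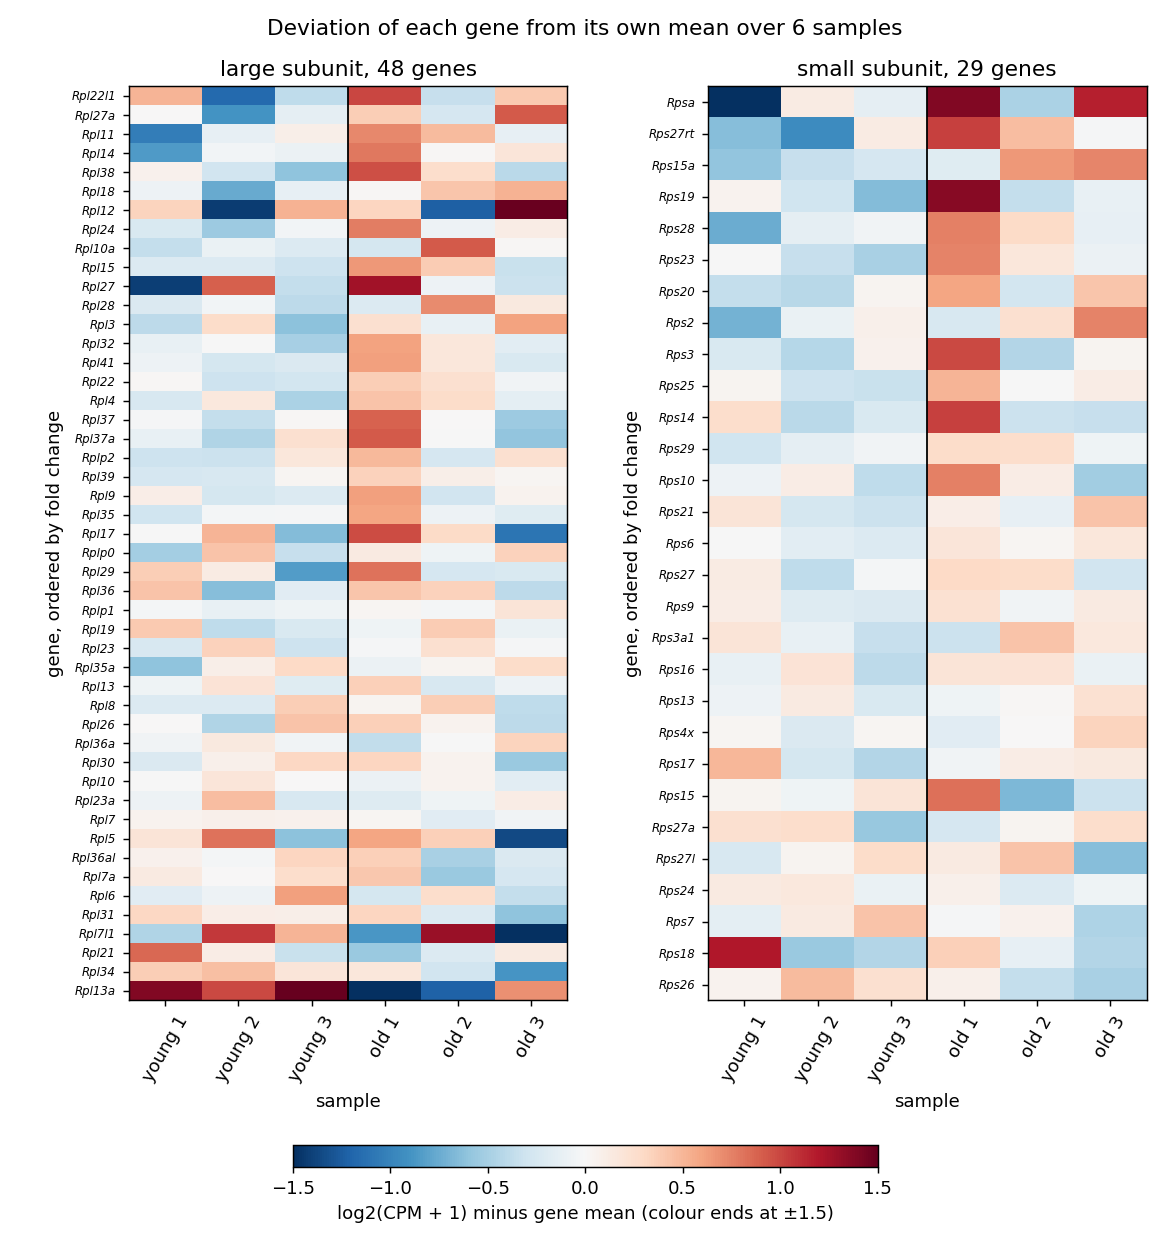
Deviation of log2(CPM + 1) from each gene's mean over 6 samples (colour, blue below and red above, ending at 1.5 in either direction) for 48 large and 29 small subunit genes (rows, ordered by fold change) in the 6 samples (columns). The column of old sample 1 is red for most rows (median deviation 0.32), while old samples 2 and 3 are mixed.

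Ribosomal protein transcripts are short, and the log2 fold changes were set beside those of other genes of like length. Among tested protein-coding genes with transcripts of up to 700 bases, the median log2 fold change was 0.16 for 269 genes outside the set and 0.20 for 35 ribosomal protein genes. From 700 to 1400 bases it was 0.06 for 1433 other genes and 0.27 for 38 ribosomal protein genes. Between 1400 and 2800 bases it was -0.02 for 4382 other genes and 0.12 for 6 ribosomal protein genes. Above 2800 bases it was 0.02 for 7000 other genes and 0.69 for 2 ribosomal protein genes. Those 2 were Rps15a and Rps20, placed in this class by the unusually long transcripts used for them (5130 and 3706 bases). The other genes were not matched for level. Their median levels, from the shortest to the longest class, were 9.22, 10.8, 16.1 and 32.8 CPM, against 94.9 CPM for the standard ribosomal protein genes. The parts of transcript length and of level in the difference were not tested beyond these values.

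Markers of several cell types lay apart between the ages as well. All 9 lymphatic endothelial markers tested had positive log2 fold changes, and their summed level was 10772 to 13383 CPM in the young samples and 16694 to 20341 CPM in the old, so the defining markers of the labelled cell type were present in every sample. All 9 fibroblast markers were negative, with sums of 5369 to 8371 CPM in the young and 2608 to 3074 CPM in the old samples. Of 13 macrophage markers 12 were negative, with sums of 833 to 4713 CPM in the young and 846 to 2278 CPM in the old, and Cd163 was at 0 in some sample. The 7 tested of 8 blood endothelial markers were positive (581 to 799 CPM young, 1163 to 1674 CPM old, Mfsd2a at 0 in some sample), as were 8 of 9 pericyte and smooth muscle markers (619 to 929 CPM young, 854 to 2018 CPM old, the highest in old sample 1, Des and Cnn1 at 0 in some sample). Lymphocyte markers summed to 72.5 to 1009 CPM in the young and 83.1 to 1244 CPM in the old, with 3 of 6 tested positive, Cd3e, Cd79b and Ms4a1 at 0 in some sample. Erythroid markers summed to 79.7 to 418 CPM in the young and 2.47 to 814 CPM in the old, with 5 of 5 positive and Hbb-bt, Hba-a1 and Hba-a2 at 0 in some sample. Their part in the ribosomal protein values was not tested, and in a sorted bulk sample fewer cells of a type and less RNA per cell cannot be told apart.

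Among small subunit genes, Rps15a (ENSMUSG00000008683, chr7:118104372-118116188, minus strand) had the smallest p. It encodes a protein of the small subunit body. Its level was 95.4, 113 and 121 CPM in the young samples and 127, 227 and 239 CPM in the old, so every old sample was above every young one, with old sample 1 close to the young range. The log2 fold change was 0.85 with a standard error of 0.33, with unadjusted p = 0.0296 and adjusted p = 0.888 by edgeR's quasi-likelihood test. Leaving out 1 sample at a time kept it between 0.69 and 1.09. The pyrimidine run near its RefSeq start lay at positions -15 to -6, wholly before that start. The RefSeq start was 891 bases from the start of the transcript used here. The gene had 4 copies among the rows of the table.

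Rps6, the small subunit protein that the S6 kinases of the mTORC1 pathway phosphorylate, was 96.4, 87.0 and 83.7 CPM in the young samples and 110, 99.0 and 109 CPM in the old. These groups did not overlap, but the difference was small (0.25, standard error 0.31), and 58.4% of the level combined with its copies was in its own row. With the copies added, the Rps6 groups overlapped.

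Several small subunit genes rested on single samples. Rps19, the gene most often mutated in Diamond-Blackfan anaemia, had 76.6, 59.6 and 46.7 CPM in the young samples and 191, 57.5 and 68.3 CPM in the old. Its old mean was set by old sample 1, and its log2 fold change went from 0.79 to 0.04 without that sample. Rps3, a protein of the messenger RNA entry channel, showed the same picture, with 234, 203 and 287 CPM in the young samples and 544, 202 and 282 CPM in the old. Rps18 had 189, 55.2 and 60.2 CPM in the young samples and 105, 74.8 and 60.2 CPM in the old. Here young sample 1 stood apart, and the log2 fold change turned from -0.34 to 0.47 without it.

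Rpsa, which encodes the small subunit protein also known as the laminin receptor, had the highest fold change of the standard genes, 1.42 on the log2 scale with a standard error of 0.96. Its values were low and scattered, with 2.05, 13 and 10.7 CPM in the young samples and 32.7, 8.28 and 27.9 CPM in the old, and the groups overlapped. Rps27rt, a retrocopy of Rps27 with 1 exon on chromosome 9, had 28.9, 23.1 and 49.6 CPM in the young samples and 93.2, 62.8 and 44.9 CPM in the old. Old sample 3 lay within the young range, and the log2 fold change was 0.98 with a standard error of 0.52 (edgeR, unadjusted p = 0.0898, adjusted p = 0.891). Since 92.4% of its words were in other rows, reads of Rps27rt and Rps27 cannot be told apart with certainty. Rps27 itself was the small subunit gene of the highest level per kilobase. It had 251, 176 and 224 CPM in the young samples and 283, 278 and 188 CPM in the old samples, with overlap.

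Small subunit genes with negative log2 fold changes included Rps26 (-0.52), Rps18 (-0.34) and Rps7 (-0.29), each about as large as its standard error or smaller. Rps26, which reads the messenger RNA just upstream of the start codon, had 24.9, 33.5 and 28.4 CPM in the young samples and 25.3, 18.5 and 16.8 CPM in the old. For Rps26, 2 of the old samples lay below the young range and 1 lay within it. Rps25, used by some viral messenger RNAs to start translation, had 16.1, 12.4 and 12.3 CPM in the young samples and 22.7, 15.7 and 17.0 CPM in the old, with overlap.

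In the large subunit, the stalk that recruits elongation factors is built from Rplp0, Rplp1 and Rplp2. Rplp1 had 145, 136 and 141 CPM in the young samples and 150, 145 and 168 CPM in the old samples. The groups just failed to overlap, with a log2 fold change of 0.13 that became -0.0035 with scaling by library size alone. Rplp0 had 91.9, 176 and 103 CPM in the young samples and 144, 126 and 167 CPM in the old, and Rplp2 had 126, 125 and 176 CPM in the young and 219, 131 and 185 CPM in the old. Both overlapped between ages, and none of the 3 stalk genes passed the test.

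Rpl18, a large subunit protein whose start window held a pyrimidine run, had 88.3, 54.7 and 85.3 CPM in the young samples and 93.8, 124 and 133 CPM in the old. No old sample was as low as a young one, and the log2 fold change was 0.62 with a standard error of 0.35 (edgeR, unadjusted p = 0.114, adjusted p = 0.891). Rpl14 had 34.4, 61.3 and 59.0 CPM in the young samples and 109, 63.6 and 71.9 CPM in the old, again without overlap, with its highest value in old sample 1. Rpl38, a protein linked to the translation of Hox messenger RNAs in the embryo, had 102, 78.9 and 63.6 CPM in the young samples and 190, 116 and 73.1 CPM in the old, with overlap. Rpl11, which with Rpl5 and the 5S ribosomal RNA can bind the p53 regulator Mdm2, had 35.6, 67.5 and 78.5 CPM in the young samples and 122, 103 and 67.8 CPM in the old samples. Its groups overlapped at a log2 fold change of 0.69, and 61.4% of its combined level was in its own row. Rpl27a had the largest positive log2 fold change among large subunit genes of at least 10 CPM, 0.73 with a standard error of 0.55, with 38.5, 20.2 and 34.9 CPM in the young samples and 49.9, 31.97 and 73.4 CPM in the old. Old sample 2 lay within the young range, and the log2 fold change was 0.39 without old sample 3 and 0.98 without old sample 2. Without old sample 1, the log2 fold changes of Rpl14 and Rpl38 went from 0.66 to 0.39 and from 0.63 to 0.22, and that of Rpl11 was 0.42 without young sample 1.

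Rpl41 and Rpl39 encode very short, basic large subunit proteins. Rpl41 had 265.5, 234 and 240 CPM in the young samples and 428, 316 and 238 CPM in the old samples, so old sample 3 was level with the young group. Rpl39, a protein of the exit tunnel, had 88.2, 88.7 and 107 CPM in the young samples and 134, 112 and 107 CPM in the old, and the groups overlapped narrowly. Rpl22 had 90.6, 71.9 and 73.6 CPM in the young and 116, 106 and 85.9 CPM in the old. Rpl10a had 98.3, 118 and 110 CPM in the young samples and 105, 240 and 128 CPM in the old, where old sample 2 set the difference (log2 fold change 0.54, and 0.10 without it). Rpl24, Rpl32, Rpl9 and Rps23 had log2 fold changes of 0.58, 0.43, 0.29 and 0.59, each with overlapping groups. Without old sample 1 these values were 0.28, 0.20, 0.0033 and 0.32, and Rpl41 went from 0.41 to 0.17. Rpl36a and Rps27a, the latter a fusion of ubiquitin with a small subunit protein, were near 0, at -0.003 and 0.009.

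Rpl13a had the lowest log2 fold change of all ribosomal protein genes. It encodes a large subunit protein that, once phosphorylated, can leave the ribosome and silence inflammatory messenger RNAs. The row (ENSMUSG00000074129, chr7:45125558-45128761, minus strand) had 39.7, 29.7 and 53.5 CPM in the young samples and 0.224, 5.67 and 23.9 CPM in the old samples. Every old sample was below every young sample, but the old samples spread widely, from 3 to 489 estimated counts. The log2 fold change was -2.04 with a standard error of 1.22 (edgeR, unadjusted p = 0.131, adjusted p = 0.898), and it ranged from -3.79 to -1.47 when 1 sample was left out. The limma-voom test gave an unadjusted p of 0.0238. Other rows shared 58.2% of its words.

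Rpl34 had 52.7, 55.9 and 46.3 CPM in the young samples and 46.2, 33.3 and 21.7 CPM in the old. Its log2 fold change was -0.62 with a standard error of 0.50, and old sample 1 lay level with the lowest young sample. Rpl7, the steadiest gene, was the third with old below young, by a log2 fold change of -0.13. Rpl21, with 127, 75.3 and 54.9 CPM in the young samples and 47.1, 60.2 and 76.8 CPM in the old, overlapped widely.

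The paralogs were mostly low. Rpl10l, known as a testis form of Rpl10, was listed at 4.72 CPM in young sample 1, at 0.898 CPM in old sample 1 and at 0 in the other 4 samples. Rpl39l was listed at 4.11 CPM in young sample 2 and at 0 elsewhere. Rpl22l1, the paralog of Rpl22, had 2.54, 0.102 and 0.900 CPM in the young samples and 3.97, 0.944 and 2.25 CPM in the old. Its log2 fold change of 1.01 turned to -1.51 with its copies added, and no direction can be read from it. Rpl7l1 had 8.63, 26.5 and 17.7 CPM in the young samples and 6.21, 31.4 and 3.52 CPM in the old, with overlap. Rpl36al and Rps27l, whose means were above 20 CPM, had log2 fold changes of -0.20 and 0.003.

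Pooling copies with their genes moved single genes and the subunit medians. The large subunit median went from 0.26 to 0.13, and the small subunit median from 0.26 to 0.27. With copies added, 61 of 82 tested genes were positive, the median was 0.21, and the smallest adjusted p of edgeR's quasi-likelihood test was 0.885. Of the 81 genes tested both ways, 2 changed the sign of their log2 fold change, Rpl22l1 and Rpl29. Rpl27 with its copies had 40.0, 92.6 and 60.1 CPM in the young samples and 172, 79.5 and 132 CPM in the old samples. Young sample 2 lay above old sample 2, and the log2 fold change was 0.99 (edgeR, unadjusted p = 0.0536, adjusted p = 0.885), against 0.49 from its own row. Rpl5 with its copies had 235.5, 170 and 151 CPM in the young samples and 139, 142 and 151 CPM in the old samples. The groups overlapped narrowly, with a log2 fold change of -0.36. The copies themselves summed to 1464, 1194 and 1323 CPM in the young samples and 1400, 1392 and 1234 CPM in the old, with overlapping groups.

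The other genes of the ribosome and of its control gave no call either. Among ribosomal proteins whose symbols do not start with Rpl or Rps, Fau, a fusion of a ubiquitin-like protein with a small subunit protein, had 47.6, 48.8 and 53.9 CPM in the young samples and 68.5, 64.9 and 60.5 CPM in the old, without overlap (log2 fold change 0.37). Rack1, a scaffold on the small subunit, had a log2 fold change of -0.21, with overlap. Among 18 other genes whose transcripts carry a TOP tract, such as elongation factors, 11 were positive and 7 negative. Their median log2 fold change was 0.18, and none had an unadjusted p under 0.05 by edgeR, against 5.56% of all tested genes. Pabpc1, the poly(A)-binding protein, was lower in every old sample, with 443, 463 and 421 CPM in the young and 417, 329 and 319 CPM in the old. Npm1 and Tpt1 had log2 fold changes of 0.33 and 0.25, and the RNA gene Snhg12 one of -1.64, each with overlap.

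Ribosome biogenesis factors, which transcribe and process ribosomal RNA and assemble the subunits, were balanced. Of 47 tested, 23 were positive and 24 negative, and the median was -0.0044. By edgeR, 0 had an unadjusted p under 0.05, against 5.56% of all tested genes. Nat10, which modifies ribosomal RNA, had 20.5, 20.2 and 14.4 CPM in the young samples and 98.5, 18.1 and 38.9 CPM in the old, and Nop16 had 24.1, 20.8 and 9.27 CPM in the young and 6.44, 8.14 and 2.49 CPM in the old. The Nat10 groups overlapped, while those of Nop16 did not, with old below young. Of 21 genes of the mTORC1 pathway and translation control, 12 were positive and 9 negative, with a median of 0.14. Tsc1, an inhibitor of mTORC1, was the 1 gene of the 21 at an unadjusted p under 0.05, against 5.56% of all tested genes. Tsc1 had 134, 35.4 and 47.9 CPM in the young samples and 19.8, 32.3 and 31.3 CPM in the old (log2 fold change -1.38, unadjusted p = 0.0498, adjusted p = 0.888, edgeR). Its young mean was raised by young sample 1. Larp1, the protein that binds the TOP tract, had 105, 160 and 126 CPM in the young and 228, 178 and 140 CPM in the old, with overlap, and Eif4ebp2 and Rps6kb2 had log2 fold changes of 0.62 and -1.04.

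Mitochondrial ribosomal proteins, which are encoded in the nucleus and build the separate ribosome of the mitochondrion, had a median near 0. Of 76 tested, 36 were positive and 40 negative, with a median log2 fold change of -0.06, and their summed level was 1149, 1007 and 1005 CPM in the young samples and 1251, 987 and 886 CPM in the old. By edgeR, 2 were higher in old samples at an unadjusted p under 0.05 (2.86% of all tested genes), and 1 was lower (2.7%). After adjustment, 0 passed. Mrps2 had 6.14, 9.90 and 3.47 CPM in the young samples and 95.8, 20.0 and 35.7 CPM in the old, without overlap (log2 fold change 2.96, adjusted p = 0.752). Mrpl28 and Mrpl37 had log2 fold changes of 2.22 and -1.41, and Mrpl32 one of 2.25. The difference in median between cytosolic and mitochondrial ribosomal proteins was not tested.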

How the data were processed

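The table holds estimated counts per gene, deposited by the authors as whole numbers, for 3 young and 3 old samples. FastQC, Salmon and mm10 are named per the submitters' processing notes; for versions, annotation and strandedness, no value was given in the sources used here. Salmon divides reads between near-identical sequences by likelihood, so rows with pseudogene copies are uncertain.

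Symbols, positions and transcripts came from GENCODE M21 (GRCm38); 22738 of 22964 rows matched. Lengths are those of 1 transcript per gene. Counts were tested in R 4.3.3 with edgeR 4.0.16 (filterByExpr with a minimum count of 10 and total of 15, TMM, robust quasi-likelihood test, two-sided, Benjamini-Hochberg over all 15394 tested genes, threshold 0.05), and checked on simulated data. Alternatives were DESeq2 1.42.0, limma-voom (limma 3.58.1), other scalings and filters, a replicate block, copies added to genes, and each sample left out.

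Members and lists were chosen with earlier results of these data known. Named genes were the 5 highest per kilobase and the 4 largest log2 fold changes in each direction per subunit (mean of at least 10 CPM), the 10 smallest p, a fixed list of genes including all paralogs, and up to 4 of smallest p per other list. Some genes that this rule names are not reported here, and 4 tested members are not drawn in the plots of single genes.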

Additional observations from a re-analysis of the deposited data

How the results depend on the processing

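No ribosomal protein gene was called by edgeR, DESeq2 or limma-voom under any alternative run, and the smallest adjusted p of edgeR's alternatives was 0.607. With scaling by library size only, the number at an unadjusted p under 0.05 was 0 (5.4% of all genes), the median log2 fold change 0.11, the small subunit median 0.12 and the log2 ratio of summed CPM 0.0953; limma-voom gave 2 genes at an unadjusted p under 0.05 (6.35% of all genes). Leaving out 1 sample at a time gave 0 to 1 gene at that level (4.24% to 8.28% of all genes), 51 to 61 positive genes, medians of 0.15 to 0.31 (large subunit 0.15 to 0.28, small subunit 0.16 to 0.33), a log2 ratio of sums of 0.13 to 0.31 and a change in the log2 ratio of large to small subunit of -0.15 to -0.02. DESeq2, limma-voom and the block do not alter the sums, so these have no value there.

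Of 671 alternative values of 42 named genes, 643 kept their direction. Rpl36a turned to 0.0239 with DESeq2 size factors, 0.0242 with DESeq2 and 0.0105 with limma-voom. With library size only, Rplp1 turned to -0.0035, Rps27a to -0.12, Rps27l to -0.14 and Rps4x to -0.017. Rps27a was -0.013 with -ps rows added. Rps27l was -0.0090 with no filter, -0.0030 with a mean of at least 50 counts, -0.14 with limma-voom and -0.046 with the replicate block. Rpl22l1 was -1.51 with copies added, an alternative chosen after seeing the data. With 1 sample left out, the ranges that crossed 0 were -0.20 to 0.16 for Rpl36a, -0.53 to 0.24 for Rpl5, -1.86 to 0.0938 for Rpl7l1, -0.65 to 0.47 for Rps18, -0.23 to 0.14 for Rps27a, -0.25 to 0.26 for Rps27l and -0.0391 to 0.22 for Rps4x. The causes were not tested.

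No pairing by replicate number was evident. Deviations of same-numbered samples correlated at 0.0792, 0.0533 and -0.0119, and 3 of 6 samples correlated best with their own number. With 3 samples in a group, such a check cannot exclude a pairing. The replicate block gave a median of 0.23 (-0.095 over all genes), 1 gene at an unadjusted p under 0.05 (4.63% of all genes) and 0 calls.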
